A study of Mus musculus with 24 samples.

Results

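Imprinted genes are transcribed mainly or only from the copy inherited from 1 parent. The 43 genes described here are such genes of the mouse, chosen by name, and all 43 were found by their exact gene name among the 37074 gene names of the array, where they had 99 probes. Their levels were followed in the liver of 24 male C57Bl6J mice of the F3 generation, 1 Agilent array in 1 colour (Cy3) per mouse. The 9 reference mice (STD_Cont) belonged to the lineage labelled Control fatty acid, whose growing diet was supplemented with high-oleic sunflower oil, and were fed a low-fat diet. The 8 HFoleic mice (HFD_Cont) were of the same lineage but were given an obesogenic diet with much fat and sucrose. The 7 HFepa mice (HFD_O3) had the same obesogenic diet and came from the n-3PUFA lineage, whose oil was a fish oil with a high share of EPA (eicosapentaenoic acid). All mice were killed during fasting. The age of the mice was not given in the sources used here. HFepa differed from the reference in lineage, oil and diet at once, because no low-fat mice of the n-3PUFA lineage were measured, and both comparisons with the reference share its 9 arrays.

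Imprints are marks of DNA methylation set in the germ line at control regions, and they are kept in body cells through the divisions of the embryo. Many imprinted genes lie in clusters in which 1 control region acts on several neighbours, often with a long non-coding RNA such as H19, Meg3, Airn or Kcnq1ot1 among them. Several of them govern fetal growth: Igf2 is a growth factor, Igf2r is the receptor that clears it, and Cdkn1c and Grb10 restrain growth. In the liver, Igf2, H19 and Dlk1 are high before birth and are turned down soon after it. The array measures the sum of both parental copies, so no value here tells which copy was transcribed.

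Long non-coding RNAs of 4 of these clusters are read by the array, and the results below turn on which stretch of each it reads. Their probes are therefore shown 5′ to 3′, in lower case, with mm9 coordinates as in the scanner files.
H19, A_55_P2903297, chr7:149761492-149761551 on the minus strand: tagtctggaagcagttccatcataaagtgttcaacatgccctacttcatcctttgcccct
Meg3, A_55_P2736854, chr12:110783470-110783529 on the plus strand: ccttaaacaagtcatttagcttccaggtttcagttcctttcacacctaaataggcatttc
Meg3, A_51_P455997, chr12:110809678-110809737 on the plus strand: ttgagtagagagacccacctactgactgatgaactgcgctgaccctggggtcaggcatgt
Airn, A_55_P2122633, chr17:12944784-12944843 on the plus strand: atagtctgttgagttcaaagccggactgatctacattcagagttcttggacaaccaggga
Airn, A_55_P2055199, chr17:13008078-13008137 on the plus strand: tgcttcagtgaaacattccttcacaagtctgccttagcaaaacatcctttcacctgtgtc
Kcnq1ot1, A_55_P2408415, chr7:150440140-150440199 on the minus strand: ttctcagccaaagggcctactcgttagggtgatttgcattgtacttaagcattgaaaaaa
Kcnq1ot1, A_55_P2726757, chr7:150409006-150409065 on the minus strand: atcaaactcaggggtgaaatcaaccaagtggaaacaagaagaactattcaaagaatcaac
The strands place Airn opposite to Igf2r, whose single probe lies on the minus strand of the same chromosome, and Kcnq1ot1 opposite to Kcnq1. Whether these 60 bases also match other places in the genome was not tested, since no genome of this build was used here.

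The upstream stretch of 3 genes named in the comparisons is given next. A germ-line imprint is recognised through DNA sequence at control regions, and whether these stretches lie in one was not tested. ZFP57, the zinc finger protein that protects imprints after fertilisation, binds the methylated letters TGCCGC, and capitals mark these letters or their reverse complement GCGGCA in the 250 bases before the start of the transcript (RefSeq, GRCm38.p6).
Peg12, chr7:62464511-62464760 on the minus strand: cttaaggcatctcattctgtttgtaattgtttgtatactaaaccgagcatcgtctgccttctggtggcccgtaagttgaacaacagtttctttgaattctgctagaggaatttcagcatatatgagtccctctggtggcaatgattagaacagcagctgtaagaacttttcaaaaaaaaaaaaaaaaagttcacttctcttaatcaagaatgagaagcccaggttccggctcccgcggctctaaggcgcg
Mest, chr6:30737800-30738049 on the plus strand: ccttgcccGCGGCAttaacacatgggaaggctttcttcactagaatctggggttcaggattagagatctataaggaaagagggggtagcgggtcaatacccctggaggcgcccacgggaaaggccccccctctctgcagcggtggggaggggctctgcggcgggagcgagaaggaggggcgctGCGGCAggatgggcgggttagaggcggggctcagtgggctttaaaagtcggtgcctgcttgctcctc
Meg3, chr12:109540746-109540995 on the plus strand: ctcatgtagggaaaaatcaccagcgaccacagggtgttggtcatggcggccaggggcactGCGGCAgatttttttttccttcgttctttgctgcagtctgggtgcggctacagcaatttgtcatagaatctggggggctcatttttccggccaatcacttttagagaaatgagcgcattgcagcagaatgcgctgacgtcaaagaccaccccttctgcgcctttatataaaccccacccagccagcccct
The Peg12 stretch held 0 matches, the Mest stretch 2 and the Meg3 stretch 1. Windows of 300 bases, 250 before and 50 after a start, were found for 35 of the 43 genes, and 13 of their 51 windows (25.5%) held the letters on either strand, against 3813 of 32851 windows of all genes (11.6%). The 12 genes with a match were Commd1, Copg2, Grb10, Igf2, Mcts2, Meg3, Mest, Nap1l5, Nnat, Plagl1, Snrpn and Zim1. The windows of the 43 genes held a median of 16 CpG dinucleotides, against 7 over all windows. Windows of other imprinted genes, a list described below, held the letters in 7 of 51 (13.7%), with a median of 9 CpG. The letters contain a CpG themselves, and the share at equal CpG number was not tested. A match describes these letters only, and several windows can belong to 1 gene.

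Most of the imprinted genes were detected in the liver of these mice, whereas the fetal genes Igf2, Dlk1 and H19 were above background on few arrays. Of the 43 genes, 27 had a probe well above background on all 24 arrays. They included Igf2r, Airn, Kcnq1ot1, Cd81, Gnas, which encodes the stimulatory G protein alpha subunit, and Snrpn, a spliceosome protein. Magel2 followed with 22 arrays, Asb4 with 20 and Grb10 with 16. At the other end, Igf2, Phlda2, Zim1 and Rasgrf1 were well above background on 1 array at most, Dlk1 and Nap1l5 on 3, Rtl1 on 4, and H19, Ascl2, Peg10 and Nnat on 5. Mkrn3 reached 8 arrays and Usp29 reached 10. These 13 genes were too dim for a test, which required a probe well above background on 75% of the arrays of 1 group. The other 30 genes were tested with 56 probes, 52 of which had a value on every array, and 16 genes had more than 1 tested probe. The authors' own log2 table holds 60 probes of 32 of the genes.

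**Figure D1:**
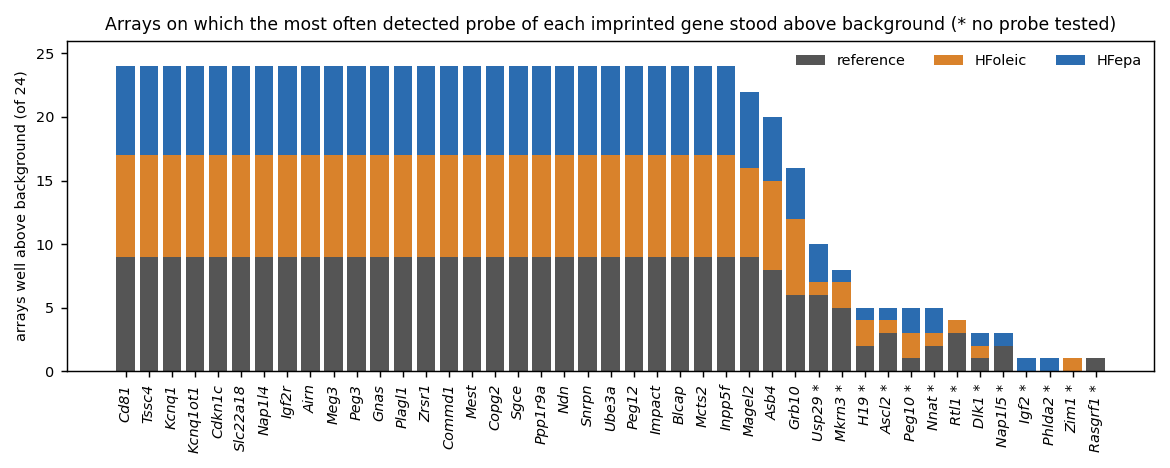
Number of arrays (y axis, of 24) on which the most often detected probe of each of the 43 genes (x axis) was well above background, stacked by group, with an asterisk where no probe was tested. The bars stay at 24 for 27 genes, and the fetal genes Igf2 and Dlk1 stand at 1 and 3.

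Between 28804 and 34432 of the 56605 probes of an array were well above background (50.9% to 60.8%), and the number of arrays limits the precision. The mean log2 signal of 8 hepatocyte markers lay between 16.11 and 16.47 in every mouse. Livers 3, 4 and 5 of the reference group stood apart by marker lists of other tissues or of other liver cells. In reference 4 (the fourth mouse of that group), a list of 14 adrenal gland genes had a mean log2 signal of 11.12, against 6.11 to 6.56 in the other mice. All 14 were well above background there, against 6 to 10 of them in the other mice. Cyp11b1, which makes corticosterone, stood at 13.1 there and at 5.66 or lower elsewhere, and Chgb of the adrenal medulla at 13.69. Not all genes of the list stood out: Mc2r was highest in reference 9 and Cyp11b2 in HFoleic 7, and Cyp11a1 stood at 6.09 against 6.01 or lower. In reference 5 the bile duct list (8.43, at most 7.38 elsewhere), the stellate cell list (10.39, at most 9.56) and the fetal liver list (8.54, at most 7.78) were highest. In reference 3 the skeletal muscle list reached 7.96, against 5.79 or lower, and the small intestine list 7.81, against 6.74 or lower. The adipocyte list was highest in reference 4 (10.25) and reference 5 (9.67), against 9.27 or lower in the other mice. Calls and counts of direction in the comparisons with the reference are also given without these mice.

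Reference 4 was the mouse with the highest value for 22 of the 99 imprinted probes, and for 10 probes of 6 genes (Dlk1, Meg3, Ndn, Gnas, Rasgrf1 and Nnat) it exceeded the next mouse by more than 1 log2 unit. Over all 56605 probes it did so for 228 (0.403%). Dlk1, a Notch-like membrane protein expressed from the paternal copy, had a log2 signal of 11.53 in reference 4 with probe A_66_P117477, whereas the next mouse stood at 5.72. Its other probe gave 8.79 against 5.77. Meg3, the maternal RNA of the same cluster, read 12.13 in reference 4 and 8.69 in reference 5 with probe A_55_P2736854, and 5.98 to 6.84 in the other 7 reference mice. Ndn (necdin, a growth suppressor) read 10.18 in reference 4 and 6.58 to 7.52 in the other mice. Cdkn1c, a cyclin-dependent kinase inhibitor, read 10.39 there and 9.46 in the next mouse. These genes were high in the 1 liver with 14 of 14 adrenal markers above background (6 to 10 in the other mice). The part of adrenal cells in the values was not tested. The same liver had the highest adipocyte list, the highest blood list (13.4, next 13.17) and, after reference 5, the highest stellate cell list, whose part was not tested either. Reference 3 had the highest value for 6 of the 99 probes, for 0 of them by more than 1 log2 unit.

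H19, the maternal RNA next to Igf2, was high in other mice. Its probe A_55_P2903297 read 10.65 in reference 5, 7.18 in reference 3 and 6.95 in HFepa 4, with a median of 5.45 over all mice. Its other probe read 6.5 in reference 5 and 6.49 in reference 8. The 2 Igf2 probes read 5.27 and 5.66 in reference 5 and were not above background there. Afp, a fetal liver protein that falls after birth like H19, read 8.49 in reference 5 and at most 7.11 in the HFoleic and 6.85 in the HFepa mice. The same liver had the highest Airn (11.28), Asb4 (7.51, an adaptor of a ubiquitin ligase) and Ppp1r9a (9.67). Its Col1a1, Spp1 and Sox9 signals of 11.18, 13.26 and 9.23 were also the highest, and their part in the imprinted values was not tested.

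**Figure D2:**
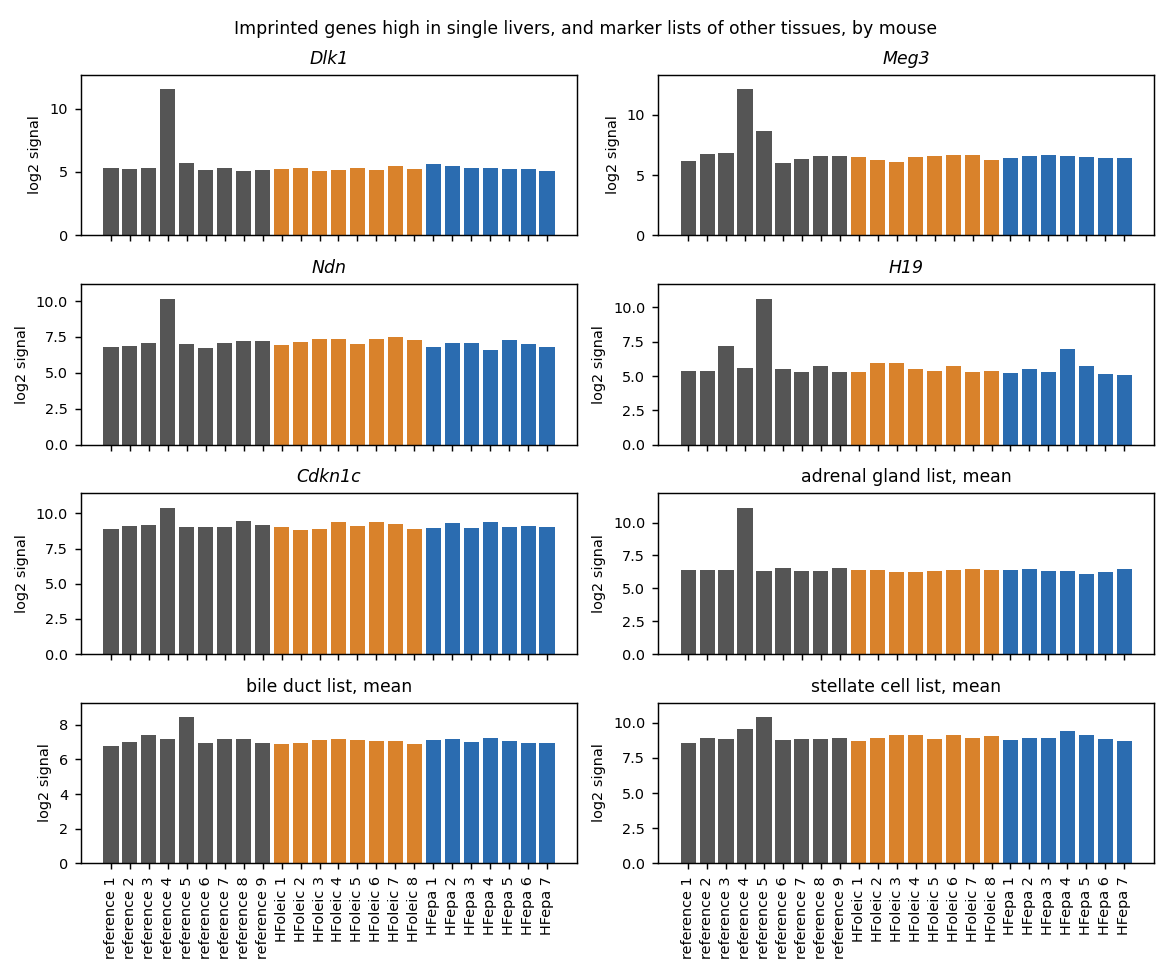
Log2 signal (y axes, from 0) of Dlk1, Meg3, Ndn, H19 and Cdkn1c and the mean of 3 marker lists in each of the 24 mice (x axis, bars coloured by group). Reference 4 stands out for Dlk1 (11.53), Meg3 (12.13), Ndn (10.18) and the adrenal gland list (11.12), and reference 5 for H19 (10.65), the bile duct list (8.43) and the stellate cell list (10.39).

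The contrast of HFoleic with the reference asked what the obesogenic diet changed within 1 lineage. Among the imprinted genes it showed little: Peg12 was lower, and no other probe passed the threshold. Limma called 1 of the 56 imprinted probes (1.79%) at an adjusted p under 0.05, against 7.23% of the 30003 tested probes of the array, and that call was lower in HFoleic, as were 3.19% of all tested probes. Without reference 4 and 5, Peg12 and Mest were called among 54 imprinted probes, against 6.98% of all, and without reference 3, 4 and 5 the same 2 genes, against 4.7%. At an unadjusted p under 0.05, 9 imprinted probes of 8 genes (16.1%) passed, against 21.1% of all. The median size of the log2 difference, taken over the brightest probe of each gene, was 0.10 for imprinted genes and 0.10 for all genes. With the brightest tested probe taken for each gene, 21 of 30 genes were lower and 9 higher in HFoleic, with a median difference of -0.06, whereas over all 20192 genes 10417 were lower, with a median of -0.01. Without reference 4 and 5, the same count was 15 lower and 15 higher, with a median of 0, and without reference 3 as well it was 14 lower and 16 higher. These settings were chosen after seeing the data, and reference 4 and 5 had the highest value for 22 and 15 of the 99 imprinted probes. Leaving them out by itself moves the count towards higher, so what the excess of lower genes rested on was not tested. By its brightest probe, each of the 18 tested genes outside the naming rule given with the processing lay in a range from -0.16 (Cdkn1c) to 0.14 (Copg2), with an adjusted p of 0.251 or more.

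Peg12, an intronless gene of the Snrpn cluster that encodes a relative of the Frat activators of Wnt signalling, is transcribed from the paternal copy. Its probe A_51_P138923 (mm9, chr7:69607011-69607070, minus strand) read 7.97, 7.6, 7.7, 7.45, 7.2, 7.98, 7.5, 7.32 and 7.84 in reference 1 to 9. It read 7.21, 7.11, 7.35, 7.14, 7.5, 7.16, 7.18 and 7.27 in HFoleic 1 to 8, and 7.33, 7.66, 7.7, 7.36, 7.36, 7.66 and 8.04 in HFepa 1 to 7. All 8 HFoleic mice lay below the reference mean, 4 of them below the lowest reference mouse, and the ranges overlapped. The mean fell by 0.38 on the log2 scale, from 7.62 ± 0.28 (SD, n = 9) to 7.24 ± 0.13 (SD, n = 8). Limma gave this difference an SE of 0.11, a 95% interval of -0.60 to -0.15 and an adjusted p of 0.0345. In bulk liver, fewer cells of a type and less RNA per cell cannot be told apart.

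The Peg12 call was close to the threshold. It was lost when no dim probe was filtered out (adjusted p = 0.0759), with the replicate number as a block (0.0961) and by the methods' t-test (0.0541). It was also lost when any one of reference 1, 3, 6 or 9 or HFoleic 1, 2, 4, 6, 7 or 8 was left out, where the adjusted p ranged from 0.0543 to 0.0733. Within the 3 slides the difference was -0.21, -0.55 and -0.33. Without reference 4 and 5 it was -0.46, with a limma adjusted p of 0.0127. Both mice lay below the reference mean, and mouse 5 (7.2) was the lowest of the group. Leaving them out, a setting chosen after seeing the data, by itself enlarges the difference.

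Ppp1r9a, which encodes the actin-binding protein neurabin, and Airn were lower in HFoleic by amounts near that of Peg12 without passing the adjusted threshold. Ppp1r9a (A_52_P239536) ranged from 8.67 to 9.67 in the reference, with a median of 9.06, and from 8.21 to 8.96 in HFoleic, with a median of 8.68. All 8 HFoleic mice lay below the reference mean, and 4 below every reference mouse. The difference was -0.40 (SE 0.13), with a limma adjusted p of 0.0573, and its second probe gave -0.10 (adjusted p = 0.567). It passed with the slide as a block (0.0484) and when reference 3, reference 8, HFoleic 4 or HFepa 2 was left out. The 2 highest reference values were those of mice 5 and 4 (9.67 and 9.31), and without these mice the difference was -0.28 (0.159).

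Airn is transcribed from the paternal copy of the Igf2r locus and silences Igf2r there in cis. Its probe A_55_P2122633, shown above, ranged from 9.56 to 11.28 in the reference, with a median of 9.68, and from 8.94 to 9.66 in HFoleic, with a median of 9.59. The high reference values were those of mice 5, 1 and 2, at 11.28, 10.66 and 10.23. The difference was -0.58 (SE 0.19, adjusted p = 0.0671), and -0.24 (adjusted p = 0.174) at its second probe A_55_P2055199. Without reference 8 the first value passed (0.048), and without reference 4 and 5 it was -0.45 (0.0707). Igf2r differed by -0.02 (95% interval -0.22 to 0.18), with 10.61 in the reference and 10.59 in HFoleic.

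Probes of Cd81, Mest and Slc22a18 were higher in HFoleic at an unadjusted p under 0.05, none of them past the adjusted threshold. Cd81, a tetraspanin imprinted in placenta, ranged from 14.37 to 15.02 in the reference and from 14.87 to 15.20 in HFoleic, a difference of 0.31 (SE 0.12, adjusted p = 0.109) that its second probe gave as 0.18 (0.384). It passed by the methods' t-test (0.0359) and with only the arrays compared (0.0273). Mest, a paternally expressed gene of the alpha/beta hydrolase fold that is known to rise in expanding fat tissue, ranged from 5.93 to 6.94 in the reference and from 6.35 to 6.87 in HFoleic. Its difference was 0.29 (SE 0.11, adjusted p = 0.103) at A_55_P2090025, its 1 tested probe. The other Mest probes were well above background on 3, 1 and 0 of the 24 arrays. The 2 highest reference values of Mest, 6.94 and 6.76, were those of mice 4 and 5, which also had the 2 highest adipocyte lists (10.25 and 9.67). The part of fat cells in these values was not tested. Without these mice the difference was 0.42 with a limma adjusted p of 0.00596, and without mouse 4 alone it was 0.36 (0.0227). Leaving out the 2 highest reference mice, a setting chosen after seeing the data, by itself enlarges a difference in this direction. The transporter-like Slc22a18 differed by 0.20 at probe A_52_P640221 (adjusted p = 0.101) and by 0.02 at its brighter probe A_51_P165882. The Gnas probe A_55_P2939538, well above background on all 24 arrays, differed by -0.19 (adjusted p = 0.134), and the Kcnq1ot1 probe A_55_P2408415 also by -0.19 (0.103).

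The second comparison, HFepa against reference, combined the diet with the change of lineage. Limma called 0 of the 56 imprinted probes, against 0.393% (118) of all tested probes. Over the whole array 1 probe was called without reference 4 and 5 and 0 without reference 3, 4 and 5, with 0 imprinted probes in both. At an unadjusted p under 0.05, 6 imprinted probes passed (10.7%, against 13.5% of all). By the brightest probe, 20 genes were lower and 10 higher, with a median of -0.04, and 13 were lower and 17 higher without reference 4 and 5, as without reference 3, 4 and 5. Ppp1r9a ranged from 8.17 to 9.00 in HFepa, with a median of 8.67. It differed from the reference by -0.44 (SE 0.13, adjusted p = 0.126), and its second probe by -0.21 (0.266).

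Snrpn had a lower mean in HFepa at all 3 of its probes, without passing the adjusted threshold. The brightest, A_66_P118076, ranged from 9.07 to 10.09 in the reference and from 8.82 to 9.48 in HFepa, and all 7 HFepa mice lay below the reference mean. The difference was -0.40 (SE 0.13, adjusted p = 0.156), and it was -0.34 (0.161) and -0.10 (0.788) at the other 2. HFoleic stood between, at 9.43 against 9.60 in the reference and 9.21 in HFepa. Airn ranged from 9.24 to 9.72 in HFepa and differed from the reference by -0.48 (adjusted p = 0.277). Blcap, an apoptosis-related gene beside Nnat, differed by -0.13 (adjusted p = 0.368).

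The third comparison, HFepa against HFoleic, held the diet constant and asked what the lineage changed. Limma called 0 imprinted probes and 0% of all tested probes, and 4 imprinted probes of 3 genes passed an unadjusted p under 0.05 (7.14%, against 9.7% of all). By the brightest probe, 15 genes were lower and 15 higher. Peg12 was 0.35 higher in HFepa (SE 0.12, adjusted p = 0.314), and its HFepa mean of 7.59 differed from the reference by -0.03 (95% interval -0.26 to 0.20). All 7 HFepa mice lay above the HFoleic mean, and the ranges overlapped.

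Zrsr1, a retrogene in an intron of Commd1 that is expressed from the paternal copy, ranged from 10.22 to 11.16 in HFepa and from 10.20 to 10.66 in HFoleic. The difference was 0.31 (SE 0.11, adjusted p = 0.343). Its parent gene Zrsr2 is close in sequence, and cross-hybridisation was not tested. The Kcnq1ot1 probe A_55_P2408415, shown above, ranged from 8.47 to 8.83 in HFepa and from 8.21 to 8.48 in HFoleic, so that 6 of 7 HFepa mice lay above every HFoleic mouse measured. The difference was 0.27 (SE 0.07, adjusted p = 0.208), with 1 HFoleic and 1 reference mouse without a value. A second probe gave 0.34 (adjusted p = 0.498), whereas the 2 brightest Kcnq1ot1 probes gave 0.07 and 0.05.

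**Figure D3:**
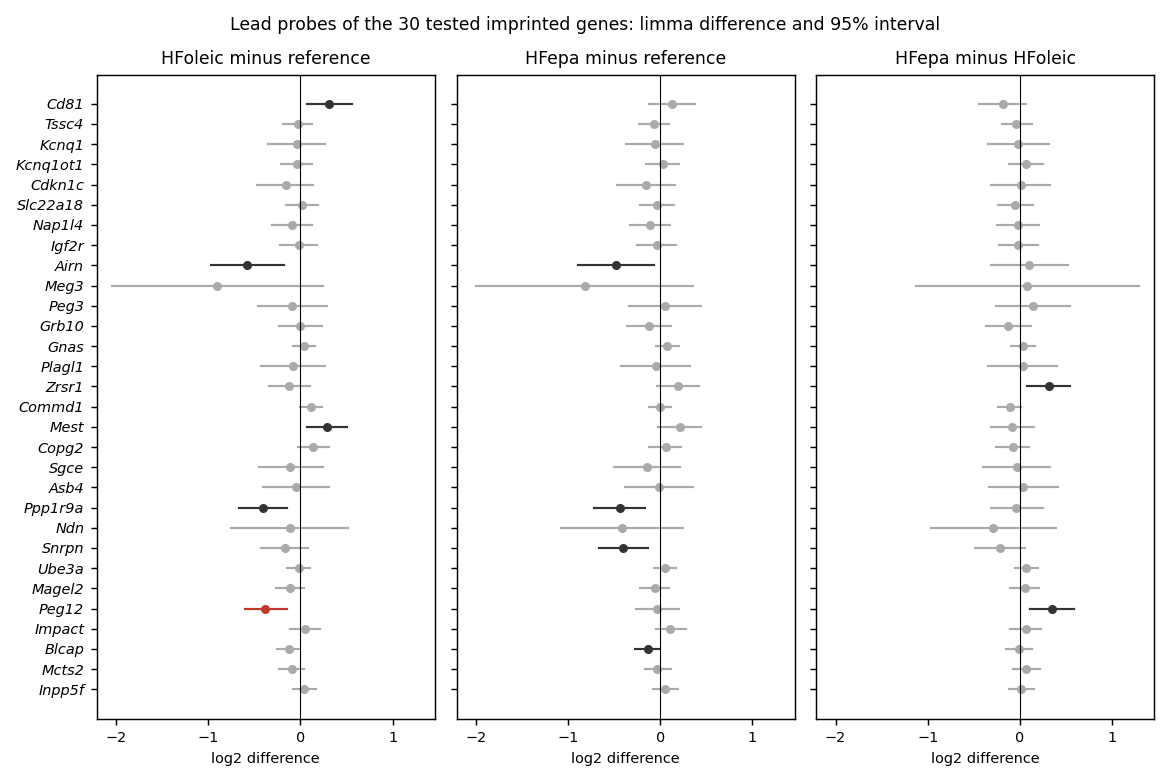
Log2 difference (x axes) of the brightest tested probe of each of the 30 tested genes (y axis) in the 3 comparisons, with the limma 95% interval. Peg12 in HFoleic minus reference (-0.38) is the 1 value past the adjusted threshold, in red, black marks an unadjusted p under 0.05, and Meg3 has the widest intervals.

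**Figure D4:**
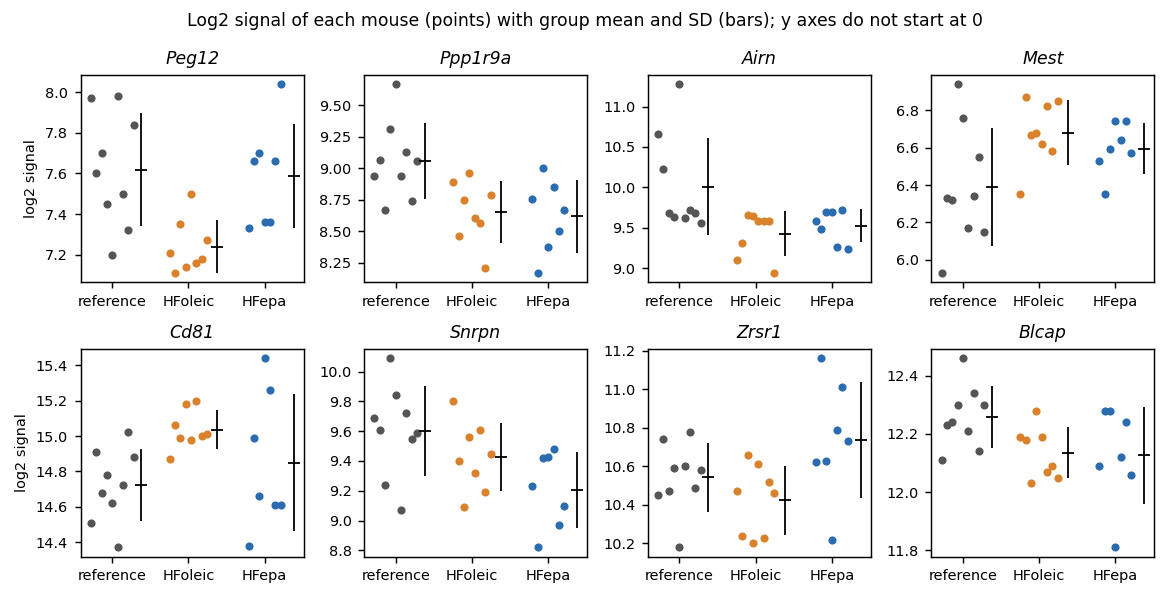
Log2 signal (y axes, not from 0) of each mouse (points) by group for the 8 genes whose brightest probe had an unadjusted p under 0.05 in a comparison, with mean and SD. Groups overlap in every panel, and the Peg12 values of HFoleic lie between 7.11 and 7.5, below a reference mean of 7.62.

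The spread between mice of a group was wide for several imprinted genes. The median within-group SD of their brightest probes was 0.23, against 0.18 over all tested probes. Meg3 had an SD of 1.22, above 99.9% of tested probes, and was followed by Ndn, Airn, Peg3, a zinc finger gene expressed from the paternal copy, and Asb4. Without reference 4 and 5, the SD was 0.22 for Meg3, 0.21 for Ndn, 0.31 for Airn, 0.22 for Asb4 and 0.42 for Peg3, and the medians were 0.19 for imprinted genes and 0.17 for all tested probes. The Meg3 difference of -0.90 (95% interval -2.04 to 0.24) between HFoleic and reference was -0.02 without reference 4 and 5. Peg3 spread within every group, from 6.10 to 6.98 in the reference, 5.84 to 7.20 in HFoleic and up to 7.43 in HFepa. At the other end, Commd1, Ube3a and Gnas had SDs above less than 10% of tested probes, and the brightest Gnas probe stood at 15.33, 15.37 and 15.40 in reference, HFoleic and HFepa.

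The direction was also read by the parental copy that textbooks give as active. Of the 13 tested genes expressed from the paternal copy, 11 were lower in HFoleic than in the reference, with a median of -0.11, and 8 were lower without reference 4 and 5, with a median of -0.08. Of the 5 maternally expressed genes, 4 were lower, and 2 without these mice. The remaining 12 are imprinted in some tissues or stages only, and 6 were lower. No difference between these classes was tested.

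Neighbours in a cluster were compared across mice, since they share control regions. Each gene was read by its brightest tested probe only (1 of 4 for Kcnq1ot1, 1 of 2 for Kcnq1), and its other probes were not compared. That Kcnq1ot1 probe, A_55_P2726757, had a mean log2 signal of 13.2 over all mice, and the other tested ones 13.13, 8.55 and 8.36. Whether it also reads other places in the genome was not tested. Of 13 listed pairs, 6 had both genes tested. Snrpn and Ube3a, the ubiquitin ligase gene whose paternal copy is silenced in neurons by a transcript that starts at Snrpn, ran opposite to each other. Pearson's r was -0.61 (permutation p = 0.00141, adjusted over the 6 pairs 0.00846) and Spearman's rho -0.56 (adjusted 0.0238), and r was -0.64, -0.42 and -0.75 within reference, HFoleic and HFepa. Kcnq1, a potassium channel gene, and Kcnq1ot1, its antisense RNA, had r = -0.56 (permutation p = 0.00699, adjusted 0.021) and rho = -0.55 (adjusted 0.0238). Within HFoleic r was 0.09, and it was -0.66 and -0.82 within reference and HFepa. Without the 2 mice farthest from the median, r was -0.49 (adjusted 0.0643) and -0.56 (adjusted 0.0562), so neither relation passed. Igf2r and Airn had r of 0.14, Zrsr1 and Commd1 of -0.12, Mest and Copg2 of 0.28, and Ndn and Magel2 of 0.15, with adjusted p of 0.364 or more.

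**Figure D5:**
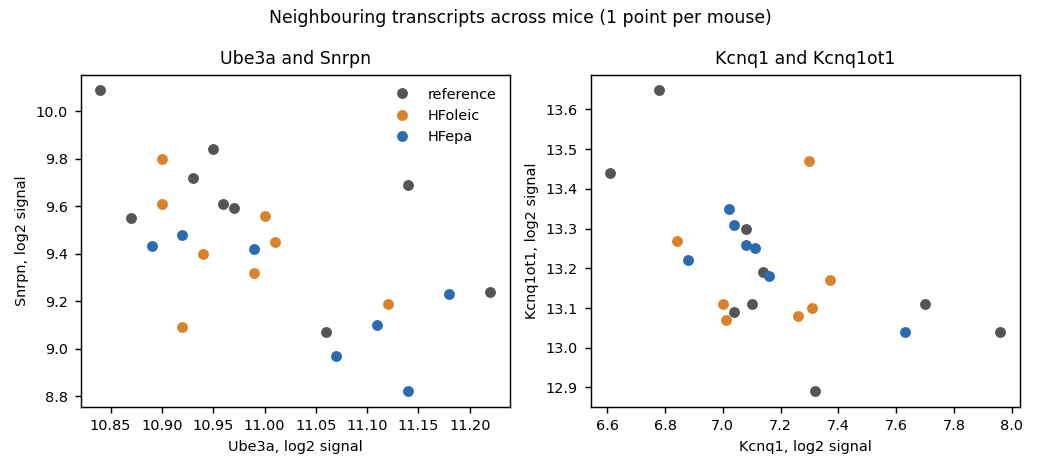
Log2 signal of Snrpn against Ube3a and of Kcnq1ot1 against Kcnq1 (brightest tested probe of each gene, axes not from 0), 1 point per mouse, coloured by group. Points fall from upper left to lower right in both panels (r of -0.61 and -0.56), and the HFoleic points of the second panel do not (0.09).

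Genes around these members were counted from further lists. Of 38 other imprinted genes on the array, 19 were tested, and in HFoleic against reference limma called 1 higher and 2 lower, of 29 probes (10.3%, against 7.23% of all tested probes). Tfpi2, a protease inhibitor, was 0.42 higher (adjusted p = 0.00131, 8 of 8 mice above every reference mouse). Slc22a3, a cation transporter in the Igf2r cluster, was 0.79 lower on the log2 scale (a difference of -0.79, adjusted p = 0.0148), again with no overlap. The share of all tested probes with no overlap was not counted, so it is open whether such a separation is unusual here. For Ddc, an amine-forming decarboxylase, 1 of the probes differed by -0.38 (0.00785). These 3 calls were kept without reference 4 and 5, and higher calls made up 4.05% of all tested probes. In both other comparisons 0 probes of this list were called.

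Among 18 tested genes that set or keep imprints, limma called 2 lower in HFoleic, with 3 of 35 probes (8.57%, against 7.23% of all tested probes). Ctcfl (BORIS), a germ-line relative of the insulator protein CTCF, differed by -0.85 (adjusted p = 0.00423), and the de novo methyltransferase Dnmt3b by -0.63 (0.0109) and -0.53 (0.0116) at 2 probes. The maintenance genes Dnmt1, Uhrf1 and Zfp57 were not called. Both calls were kept without reference 4 and 5. Of 14 tested fetal liver genes, 13 were lower in HFoleic (median -0.22) and limma called Hmga1, Aldoa and Mdk, 3 of 24 probes (12.5%, against 7.23% of all and 3.19% of all called lower). Without reference 4 and 5 this was 9 of 14 (median -0.07) with Hmga1 called, and without reference 3, 4 and 5 it was 10 of 14 with 0 calls. Of 15 tested genes of the insulin-like growth factor axis, Igfbp1 (-1.34, adjusted p = 0.00344), Igfbp2 (-0.62, 0.0229) and Irs2 (-1.16, 0.00169) were lower and 2 probes of the growth hormone receptor Ghr were higher (0.43 and 0.74), in all 5 of 24 probes (20.8%, against 7.23%), beside Igf2r at -0.02. Without reference 3, 4 and 5, only Igfbp1 and Irs2 were called. The further lists were chosen with earlier results of these data known, and the paper had already reported Irs2 as lower in HFoleic. The shares of calls are therefore counts and no tests of the lists. HFepa against reference and HFepa against HFoleic had 0 calls in these lists.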

How the data were processed

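RNA of the liver of 24 mice was hybridised to Agilent SurePrint G3 mouse arrays. The authors deposited, per array, the output of Agilent Feature Extraction 10.10.1.1, whose median signals are spot intensities without normalization, with marks of 0 or 1 for outliers and for spots well above background, per the file headers. A second file the authors deposited holds log2 values of these signals after a filter, whose rule is not given in the sources used here, and quantile normalization.

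Here, spots of 1 probe were averaged as log2 median signal, leaving out outlier spots, a probe was kept if well above background on 75% or more of the arrays in any group (30003 of 56605), and values were quantile normalized. Probes too dim to keep were read from the same normalization over all probes. Limma 3.58.1 (R 4.3.3; lmFit, eBayes) was fitted on all 24 arrays, two-sided, with Benjamini-Hochberg adjustment over all tested probes of a comparison. A t-test per probe, which the methods name, was run here with equal variances as an alternative. Correlations were tested by 100000 permutations, two-sided (scipy 1.17.1). The fit was tested on simulated data.

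Full values are given for genes with a probe past the adjusted threshold, a brightest probe with an unadjusted p under 0.05, or 1 of the 5 widest spreads. The genes and lists were chosen with earlier results of these data known, and the adrenal gland and small intestine lists after values were seen. Groups and replicate numbers are those of the labels. Nothing says whether mice shared a litter, so p-values measure the spread between these mice. Replicate numbers did not pair the mice. Gene names and mm9 coordinates are those of the scanner files, and several Gnas and Kcnq1ot1 probes read different transcripts or stretches of 1 locus.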

Additional observations from a re-analysis of the deposited data

Results flagged for a closer look

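In groups of 7 to 9 mice, 14 values lay apart from the rest of their group, measured as the gap to the nearest mouse divided by the range of the group. Chance alone marks about 1 in 20 groups. Here 9 of 90 groups of the brightest tested probes were marked, and 5 of 12 groups of untested probes, which had been picked for their gap.

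Reference 4 had 5 of these values, all high: Dlk1 with 0.897 (11.53, next mouse 5.72) and 0.856 (8.79, next 5.77), Ndn with 0.854 (10.18, next 7.25), Cdkn1c with 0.616 (10.39, next 9.46) and Meg3 with 0.559 (12.13, next 8.69). Its adrenal gland markers averaged 11.12, and their part was not tested.

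Reference 5 was high for Asb4 with 0.686 (7.51, next 6.2) and H19 with 0.65 (10.65, next 7.18). H19 was also high in HFepa 4 with 0.656 (6.95, next 5.73).

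Igf2 probe A_51_P516833 stood at 7.93 in HFoleic 7, next 5.26, with 0.89, and it was not well above background on the other HFoleic arrays.

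The remaining values were smaller in log2 units. Kcnq1 was high in HFepa 1 with 0.627 (7.63, next 7.16), Nap1l4 in HFepa 7 with 0.607 (9.12, next 8.78), Sgce in HFoleic 3 with 0.569 (9.79, next 9.42) and Commd1 in HFoleic 8 with 0.545 (11.42, next 11.36). Impact was low in HFoleic 8 with 0.563 (9.71, next 9.98).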

How the results depend on the processing

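For HFoleic against reference, the count of called imprinted probes was 1. It was 0 with no filter on dim probes and with the replicate number as a block, and 2 with the slide as a block (Peg12, Ppp1r9a), with only the arrays compared (Cd81, Peg12), and without reference 4 and 5 or without reference 3, 4 and 5 (Mest, Peg12), the last 2 settings chosen after seeing the data. Leaving out 1 mouse gave 0 to 4, with 4 without reference 8 (Airn, Peg12, Ppp1r9a and Slc22a18). At an unadjusted p under 0.05, 9, 6 and 4 probes passed in HFoleic against reference, HFepa against reference and HFepa against HFoleic. HFepa against reference and HFepa against HFoleic had 0 calls at an adjusted p under 0.05 in every setting and leave-out run. The 12 genes with full values gave 477 differences under other settings with adjusted p, of which 469 kept their side of the threshold, 3 lost it and 5 gained it, with 0 called values turning sign. Of 864 values with 1 mouse left out, 848 kept it, 10 lost it, all Peg12, and 6 gained it. Pairs of neighbours past an adjusted p of 0.05 by r numbered 2. The count was also 2 with the processed signal and without reference 4 and 5, and 0 without the 2 farthest mice. By Spearman's rho, neither pair passed without reference 4 and 5 (permutation test, adjusted p of 0.095 for both).

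With the replicate block, the Peg12 difference was -0.35 (adjusted p = 0.0961). Samples of the same number did not deviate together: the correlation of their deviations ranged from -0.30 to 0.35 over 22 pairs, with a median of 0, and exceeded 0.1 in 2 pairs. Signal near background limits the 13 untested genes.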

Other observations

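Some dim imprinted probes had a high value in 1 or 2 mice. Phlda2, a maternally expressed growth restrictor of the placenta, read 7.01 in HFepa 1, against 5.43 in the next mouse. Zim1 read 6.57 in reference 2, next 5.48, and the second Asb4 probe read 6.97 in HFepa 7, next 5.75. The third Airn probe, A_55_P2510197, read 6.83 in HFepa 5, next 5.61. A second Mest probe, A_66_P134866, read 8.99 in reference 3 and 8.24 in HFoleic 6, with a median of 5.21 over all mice. These probes had no test, and the values are single arrays.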
